A study of Mus musculus with 9 samples.

Results

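The major histocompatibility complex (MHC) genes of mouse liver were examined in 9 offspring, 3 each conceived naturally (NC-chow), by in vitro fertilization with transfer of fresh embryos (IVF-chow) and by in vitro fertilization with transfer of frozen and thawed embryos (FET-chow). The genes are the protein-coding entries whose symbol starts with H2-, together with B2m, Tap1, Tap2 and Tapbp, which gave 38 genes of the 55335 in the expression table. All mice were of the labelled strain B6D2F2, the offspring of B6D2F1 parents, and were 20 weeks old and had fasted for 4 h when the liver was taken. From the methods of the study, they were males fed a normal chow, the embryos of the in vitro groups were placed in the oviducts of pseudopregnant ICR females whereas the NC-chow group came from natural pregnancies, and the embryos of the FET-chow group were frozen by a slow method. The comparison of IVF-chow or FET-chow with NC-chow therefore holds fertilization in vitro, embryo handling and a foster mother of another strain together. The litter of each mouse is not given in the sources used here, so the p-values measure the spread between these mice only. Values are FPKM, fragment numbers scaled to transcript length and library size, a unit per length in which levels of different genes can be compared.

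MHC class I molecules present peptides from inside the cell to cytotoxic T cells and consist of a heavy chain and the light chain beta-2-microglobulin, the product of B2m. The peptides are pumped into the endoplasmic reticulum by the transporter of Tap1 and Tap2 and loaded with the help of tapasin, the product of Tapbp. MHC class II molecules present peptides from outside the cell, consist of an alpha and a beta chain (H2-Aa with H2-Ab1, and the E alpha chain with H2-Eb1), and are mostly made by macrophages, dendritic cells and B cells. Class I is made by nearly all nucleated cells, including hepatocytes, and liver is also the main source of the secreted class I chain H2-Q10. In these F2 mice the H2 haplotypes of the C57BL/6 and DBA/2 parent strains segregate, so a mouse can carry either or both, and which haplotype each mouse carries is not given in the sources used here.

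In the GRCm38 annotation (GENCODE vM21), 37 of the 38 genes lie on chromosome 17 and B2m lies on chromosome 2. B2m (ENSMUSG00000060802) runs from 122147686 to 122153083 on the plus strand of chromosome 2. The classical class I genes stand on either side of the class II genes, H2-K1 (ENSMUSG00000061232) at 33996017 to 34000347 on the minus strand and H2-D1 (ENSMUSG00000073411) at 35262730 to 35267499 on the plus strand of chromosome 17. Between them lie the class II genes H2-Ab1 (ENSMUSG00000073421, 34257689 to 34269419), H2-Aa (ENSMUSG00000036594, 34282744 to 34287823) and H2-Eb1 (ENSMUSG00000060586, 34305867 to 34316674), together with Tap1 (ENSMUSG00000037321, 34187553 to 34197225) and Tap2 (ENSMUSG00000024339, 34203527 to 34216321). The Q and T genes follow distal to H2-D1, with H2-Q10 (ENSMUSG00000067235) at 35470089 to 35474563.

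Class I and class II promoters share short control elements, and the 200 bases before the transcription start are shown for B2m, H2-K1, H2-D1, H2-Aa and H2-Eb1 because the levels described next turn on these genes. The sequences are the RefSeq entries on GRCm38.p6, 5′ to 3′ on the strand of the gene. The RefSeq start of H2-D1 lies downstream of the GENCODE start, so its stretch falls inside the span given above. Capitals mark matches on either strand to CCAAT, to GGGATTCC (part of the enhancer A element of class I genes), to GAAANNGAA (an interferon response core) and to AGCAACNG (a core of the class II X box).
B2m, chr2:122147487-122147686, plus strand: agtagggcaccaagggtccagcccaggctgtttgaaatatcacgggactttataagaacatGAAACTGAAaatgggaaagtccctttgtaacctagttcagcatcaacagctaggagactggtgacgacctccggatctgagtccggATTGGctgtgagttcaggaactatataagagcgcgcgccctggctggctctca
H2-K1, chr17:34000348-34000547, minus strand: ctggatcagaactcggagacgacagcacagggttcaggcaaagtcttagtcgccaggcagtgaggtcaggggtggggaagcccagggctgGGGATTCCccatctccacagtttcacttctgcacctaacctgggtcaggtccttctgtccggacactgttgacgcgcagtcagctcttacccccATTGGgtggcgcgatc
H2-D1, chr17:35262894-35263093, plus strand: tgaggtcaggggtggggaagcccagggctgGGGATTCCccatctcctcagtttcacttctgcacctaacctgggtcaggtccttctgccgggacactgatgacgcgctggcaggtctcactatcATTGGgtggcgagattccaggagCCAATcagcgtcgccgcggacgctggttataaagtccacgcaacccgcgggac
H2-Aa, chr17:34287824-34288023, minus strand: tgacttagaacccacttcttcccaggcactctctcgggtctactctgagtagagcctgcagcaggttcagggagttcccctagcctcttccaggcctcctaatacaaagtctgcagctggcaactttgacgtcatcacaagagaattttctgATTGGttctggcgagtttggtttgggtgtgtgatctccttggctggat
H2-Eb1, chr17:34305667-34305866, plus strand: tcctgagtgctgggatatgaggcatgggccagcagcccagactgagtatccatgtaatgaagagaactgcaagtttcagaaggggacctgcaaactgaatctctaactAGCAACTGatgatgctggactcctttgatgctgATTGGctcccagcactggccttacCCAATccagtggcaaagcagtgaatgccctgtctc
Of the 38 genes, 34 matched a RefSeq promoter entry, which runs from 250 bases before to 50 bases after the start. In this window, CCAAT stood in 31 of the 34, against 37.4% of all 32851 entries. GGGATTCC stood in H2-K1, H2-D1, H2-Q6 and H2-Q7 and in 1.06% of all entries, and GAAANNGAA stood in B2m, H2-T22 and H2-T23 and in 8.56% of all entries. AGCAACNG stood in H2-Eb1, H2-Eb2 and H2-M3 and in 5.14% of all entries, but the match in H2-M3 begins at base 41 after the start. In B2m the interferon response core begins 139 bases before the start, and in H2-Eb1 the X box core begins 92 bases before it. These are matches of letters and not measurements of binding. The patterns are strict and miss variants of an element, so a promoter without a mark, such as that of H2-K1, H2-D1 or H2-Aa, may still hold one.

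The libraries differed in depth. Mapped fragments were estimated from the spacing of the lowest FPKM values, with 1 fragment taken as the step. They numbered 2020000 to 2940000 per library in the FET-chow group, 3890000 to 8440000 in the IVF-chow group and 6610000 to 13380000 in the NC-chow group. Only 35.0% to 44.2% of low values lay on a step. Some implied under 1 fragment, such as 0.44 for H2-Q1 in IVF-chow mouse 2, so these numbers are approximate. Nuclear protein-coding genes held 4.36% to 29.3% of the summed FPKM of a mouse, so the total deposited FPKM of such genes differed between mice. This share was lowest in IVF-chow mouse 2 (4.36%) and FET-chow mouse 4 (4.41%) and highest in IVF-chow mouse 4 (29.3%). The summed FPKM of 8 hepatocyte markers, all above 0 in every mouse, ran from 3806 in IVF-chow mouse 2 to 35557 in IVF-chow mouse 4. Values are therefore given as deposited and, where it matters, after median-ratio scaling over the 5768 genes above 0 in all mice. By the S numbers that end the labels' descriptions, NC-chow mice 5 and 6 lie far from the other 7 libraries, which are numbered 67 and 71 to 76.

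B2m was by far the most abundant of the 38 genes. Its FPKM in the NC-chow group was 978 in mouse 1, 1449.6 in mouse 5 and 1809 in mouse 6. In the IVF-chow group it was 233, 859.7 and 1392, and in the FET-chow group 450.1, 762 and 487, each for mice 2, 3 and 4, the order used throughout. Every FET-chow mouse lay below every NC-chow mouse, as in 17.1% of the 6755 genes tested below, whereas the IVF-chow mice ran from the lowest value of all into the NC-chow range. The group means were 1412 ± 417 in NC-chow, 828 ± 581 in IVF-chow and 566 ± 170 in FET-chow (SD, n = 3 mice each). Estimated from the depth, 783 to 20822 fragments stood behind a value, so counting error is small beside the spread between mice. Its rank among nuclear protein-coding genes, which no scaling can move, was 8, 10 and 10 in the NC-chow mice, 20, 15 and 19 in the IVF-chow mice and 25, 20 and 12 in the FET-chow mice. In rank, every mouse conceived in vitro thus stood behind every NC-chow mouse, which held for 1 of the 15 genes tested below and for 3.84% of the 5724 tested genes of that kind.

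H2-D1, a classical heavy chain, and H2-Q10, the secreted chain of liver, followed B2m in abundance. The FPKM of H2-D1 was 76.9, 75.6 and 108 in the NC-chow mice, 16.0, 88.4 and 155 in the IVF-chow mice and 46.8, 60.4 and 25.8 in the FET-chow mice. The FET-chow mice again lay below every NC-chow mouse, as in 17.1% of all tested genes, and the IVF-chow mice held both the lowest and the highest value. For H2-Q10 the FPKM was 56.6, 153 and 123 in NC-chow, 15.3, 99.8 and 142 in IVF-chow and 108, 79.2 and 13.8 in FET-chow, and the groups overlapped. H2-K1, the other classical heavy chain, had an FPKM of 8.63, 33.3 and 17.7 in NC-chow, 4.42, 95.5 and 22.1 in IVF-chow and 18.03, 20.15 and 6.73 in FET-chow. IVF-chow mouse 3 stood alone for H2-K1, and its ratio of H2-K1 to H2-D1 was 1.08 against 0.112 to 0.440 in the other 8 mice. A share of 14.3% of the stretches of 50 bases in H2-D1 and 8.79% of those in H2-K1 also occur in another gene, most often in H2-Q1 and in H2-D1 in turn. The annotation holds C57BL/6 sequence, and how reads of the other haplotype were mapped was not tested.

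**Figure D1:**
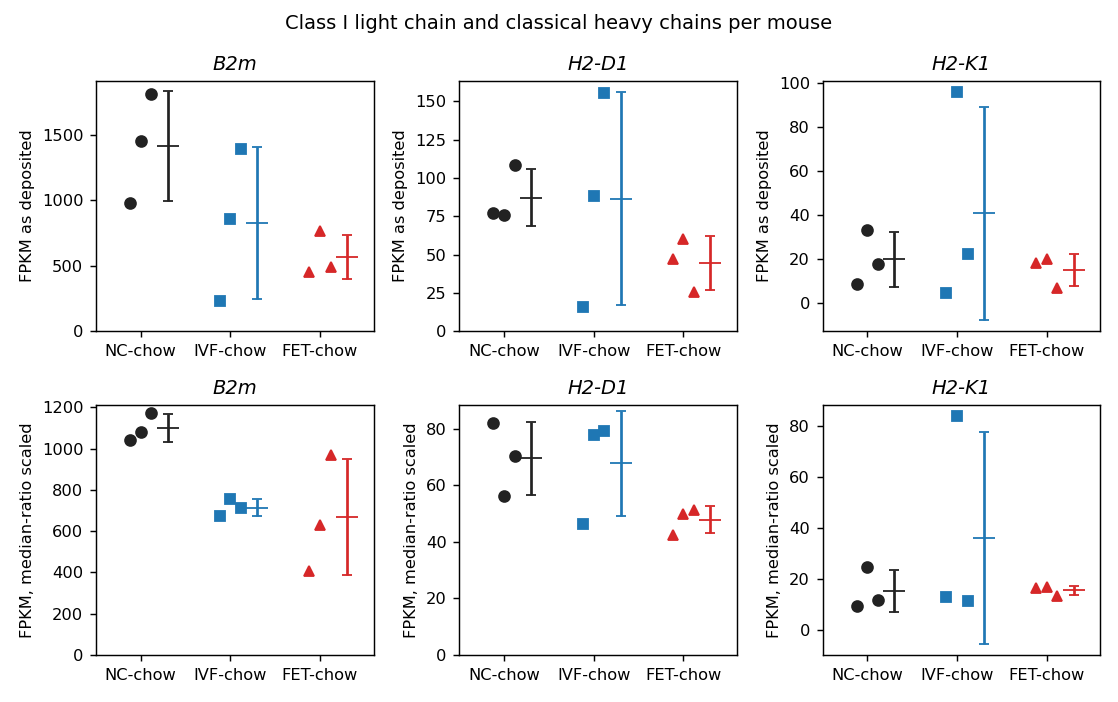
Values of B2m, H2-D1 and H2-K1 in each mouse by group, as deposited FPKM in the upper row and after median-ratio scaling in the lower row, with a point per mouse and the mean with its SD (n = 3 mice). For B2m and H2-D1 the FET-chow points lie below all NC-chow points in both rows. The same held for 17.1% of all tested genes as deposited and 13.6% after scaling. For H2-K1 a single IVF-chow mouse, at 95.5 as deposited and 84.0 scaled, stands above all others.

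The Q and T region heavy chains were lower. H2-T23, which encodes the Qa-1 chain read by inhibitory NK cell receptors, had an FPKM of 3.34, 17.97 and 19.6 in NC-chow, 2.19, 15.5 and 19.6 in IVF-chow and 12.7, 12.6 and 3.47 in FET-chow. H2-T22, a ligand of some gamma delta T cells, ran from 0.872 in IVF-chow mouse 2 to 10.8 in FET-chow mouse 2. H2-Q4 ran from 1.42 in IVF-chow mouse 2 to 11.2 in NC-chow mouse 5, and its FPKM was 2.16, 11.2 and 8.68 in NC-chow against 1.82, 3.39 and 1.89 in FET-chow. The Qa-2 genes H2-Q6 and H2-Q7 had a mean FPKM over all mice of 5.35 and 1.55. The levels of all these Q and T genes are uncertain, since part of their sequence also occurs in other genes. Of the stretches of 50 bases this held for 44.7% in H2-T22, 40.2% in H2-Q7, 32.0% in H2-Q6, 28.8% in H2-T23 and 24.3% in H2-Q4. Those of H2-T22 occur mostly in H2-T10 (37.9%). With stretches of 100 bases the shares were 14.2%, 21.9%, 10.8%, 7.28% and 2.66% in the same order. The heavy chains together summed to an FPKM of 42.7 in IVF-chow mouse 2 and 357 in IVF-chow mouse 4. Within that sum H2-D1 made up 22.5% to 49.4%, H2-Q10 21.7% to 51.7% and H2-K1 5.55% to 29.6%, and all other heavy chains 8.67% to 27.0%. These shares do not depend on the scale of a library.

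Of the tested genes that load class I, Tapbp had the wider range, its highest FPKM 22.2 times its lowest against 8.01 times for Tap2, whereas the coefficient of variation over the mice was 72.8% for Tapbp and 78.7% for Tap2. Its FPKM was 0.353, 0.279 and 6.19 in the NC-chow mice, 1.049, 4.41 and 5.35 in the IVF-chow mice and 4.27, 2.99 and 2.14 in the FET-chow mice. As deposited, a pair of NC-chow mice, 1 and 5, thus lay below all others and the remaining NC-chow mouse above all others. After median-ratio scaling mice 1 and 5 stayed lowest, but NC-chow mouse 6, at 4.02, lay below FET-chow mouse 4, at 4.25. The FPKM of Tap2 was 0.730, 2.72 and 3.96 in NC-chow, 0.550, 1.40 and 4.23 in IVF-chow and 0.528, 1.42 and 0.973 in FET-chow, and the groups overlapped. Tap1 was 1.48, 0.913 and 1.33 in NC-chow, 0.262, 0.955 and 0.856 in IVF-chow and 0.981, 0.462 and 0 in FET-chow. Its mean of 0.804 was under the limit of 1 for a test. At the estimated depth, 3 fragments, taken as an approximate upper limit for a count of 0, are worth an FPKM of 0.0759 to 0.502 for Tap1 over the mice.

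**Figure D2:**
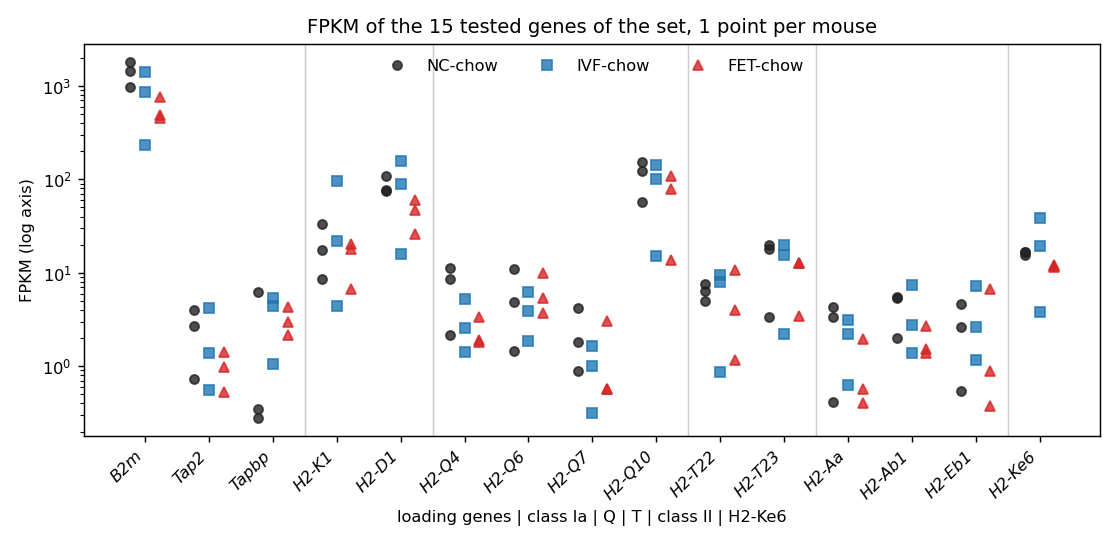
FPKM on a log axis of the 15 tested genes, 1 point per mouse and 1 colour per group. B2m lies between 233 and 1809, H2-D1, H2-Q10 and H2-K1 between 4.42 and 155, and the classical class II genes at or below 7.32.

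Class II transcripts were present at low levels in every mouse. The FPKM of H2-Aa was 0.418, 4.30 and 3.36 in NC-chow, 0.635, 3.09 and 2.22 in IVF-chow and 1.95, 0.572 and 0.399 in FET-chow. That of H2-Ab1 was 1.998, 5.55 and 5.33 in NC-chow, 1.37, 2.77 and 7.32 in IVF-chow and 1.37, 1.54 and 2.68 in FET-chow. In both genes NC-chow mouse 1 lay within the range of the FET-chow mice, so the groups overlapped. H2-Eb1 had an FPKM of 0.549, 4.67 and 2.63 in NC-chow, 1.15, 7.24 and 2.63 in IVF-chow and 6.72, 0.372 and 0.892 in FET-chow, and its ratio to H2-Ab1 ran from 0.242 in FET-chow mouse 3 to 4.90 in FET-chow mouse 2. Only an estimated 1.7 fragments of H2-Eb1 in FET-chow mouse 3 and 3.4 of H2-Ab1 in FET-chow mouse 2 stood behind the extremes of this ratio, and 1.3 to 57.9 fragments behind an H2-Aa value, so counting error is large in the shallow FET-chow libraries. The invariant chain Cd74, which holds class II molecules during transport, was higher, with an FPKM of 9.78, 14.7 and 9.66 in NC-chow, 1.06, 17.6 and 27.9 in IVF-chow and 11.1, 14.3 and 4.46 in FET-chow. The class I heavy chain sum exceeded the sum of H2-Aa, H2-Ab1 and H2-Eb1 by 13.54-fold in IVF-chow mouse 2 to 74.02-fold in FET-chow mouse 3.

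The accessory class II genes H2-DMa, H2-DMb1, H2-DMb2, H2-Oa and H2-Ob, which edit the peptides bound by class II, were all above 0 in at least 3 mice but had a mean FPKM between 0.027 and 0.837. H2-Eb2 was listed at 0 in all 9 mice. The remaining genes under the limit were H2-Q1, H2-Q2, H2-T24, H2-M2, H2-M3 and H2-M5, which with Tap1 and the accessory genes make 12 genes seen in some mouse but not tested. H2-M3, which presents formylated peptides of bacteria and mitochondria, reached 2.04 in IVF-chow mouse 3. Of the 12 M genes, 9 were listed at 0 in all mice, as was H2-T3, which with H2-Eb2 makes 11 genes never seen. H2-Ke6 carries the H2- prefix from its place in the complex, but it is better known as the dehydrogenase Hsd17b8 and is no MHC chain. Its FPKM was 16.7, 15.5 and 16.6 in NC-chow, 3.81, 19.5 and 38.7 in IVF-chow and 11.75, 12.05 and 11.4 in FET-chow, and 79.8% of its stretches of 50 bases also occur in the overlapping entry Gm20427.

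H2-Ea-ps, the entry of the E alpha chain, is annotated as a polymorphic pseudogene and is not one of the 38 genes. As background, the haplotype of C57BL/6 carries a deletion in the promoter of this gene and that of DBA/2 expresses it. Its FPKM was 2.59, 3.33 and 7.37 in NC-chow, 1.48, 2.18 and 12.03 in IVF-chow and 0, 1.40 and 0.670 in FET-chow. The FET-chow values were the lowest 3, a separation that 17.1% of all tested genes showed from NC-chow and 2.56% from IVF-chow. They rest on an estimated 0, 4.1 and 2.0 fragments. For FET-chow mouse 2, 3 fragments, taken as an approximate upper limit for its count of 0, are worth an FPKM of 1.43. As deposited, this order is therefore within counting error of IVF-chow mouse 2. It is given as deposited only, and IVF-chow mouse 2 had the smallest median-ratio scaling factor, 0.344. The log2 fold change was −1.67 against NC-chow (adjusted p = 0.294, limma) and −1.56 against IVF-chow (adjusted p = 1). Its part in any class II difference was not tested.

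Group differences were tested with limma on log2(FPKM + 1) in 1 model of the 3 groups over the 6755 genes whose FPKM averaged 1 or more, of which 15 were genes of the set. Log2 fold changes are on that scale, which understates the change of low genes. In FET-chow compared with NC-chow, 0 of the 15 genes passed an adjusted p of 0.05 (limma, Benjamini-Hochberg) and 0 had an unadjusted p under 0.05, where 0.237% and 12% of all tested genes did. B2m had the most negative value, −1.31 (SE 1.0, adjusted p = 0.632), and H2-Q4 the smallest p, with −1.13 (SE 0.69, adjusted p = 0.525). H2-D1 had −1.02 (SE 1.07, adjusted p = 0.753) and H2-Q10 −1.03 (SE 1.11, adjusted p = 0.757). H2-K1 had −0.33 and H2-T23 −0.34, and the values of H2-T22, H2-Q7 and H2-Ke6 were −0.53, −0.49 and −0.44. The class II genes had −0.78 for H2-Aa, −0.83 for H2-Ab1 and −0.22 for H2-Eb1, and Cd74 −0.28, all with an adjusted p of 0.65 or more. Tap2 had −0.71, and Tapbp, at 0.80 (SE 0.67, adjusted p = 0.676), and H2-Q6, at 0.31, were the only positive values. Leaving out 1 mouse moved 11 of these 15 values by over 1.5 times, those of B2m, H2-D1, H2-Ab1 and H2-Ke6 being the exceptions. The value of H2-Q4 was −1.72 without NC-chow mouse 1 and −0.75 without NC-chow mouse 5, that of H2-Q10 was −0.15 without FET-chow mouse 4 and −1.59 without FET-chow mouse 2, and that of Tapbp was 0.37 without NC-chow mouse 5 and 1.62 without NC-chow mouse 6. The count of negative values, 13 of 15, stands beside 74.4% of all tested genes, and the median of −0.53 beside −0.46 over all of them. All 3 FET-chow mice lay below all 3 NC-chow mice for B2m, H2-D1 and H2-Ke6, 3 of the 15 genes, which compares with 17.1% of all tested genes, and no gene of the set lay wholly above (1.98% of all). After median-ratio scaling 2 of the 15, B2m and H2-D1, lay wholly below, beside 13.6% of all, since FET-chow mouse 4 then had the highest H2-Ke6 value of all mice, and after rescaling to protein-coding genes 0 of the 15 did, beside 11.5%.

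In IVF-chow compared with NC-chow, 0 of the 15 genes passed (limma, adjusted p) and 0 had an unadjusted p under 0.05, against 0.0592% and 4.07% of all tested genes. B2m had −1.07 (SE 1.0), H2-Q4 −0.94 (SE 0.69) and Tapbp 0.83 (SE 0.67), each with an adjusted p of 1. H2-Q10, at −0.74, H2-Q7, at −0.66, and H2-D1, at −0.49, were the next lowest, and H2-K1 and H2-Eb1 had 0.32 and 0.34. Without IVF-chow mouse 2 the values of H2-Q10 and H2-D1 turned positive, at 0.22 and 0.45. That of H2-Q7 ran from −0.999 to −0.27 when a mouse was left out. H2-Aa, H2-Ab1 and Tap2 had −0.20, −0.25 and −0.24. Of the 15 values, 12 were negative against 68.9% of all tested genes, with a median of −0.25 for both. As deposited, no gene of the set separated the IVF-chow from the NC-chow mice, where 5.46% of all genes lay wholly lower and 0.77% wholly higher.

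In FET-chow compared with IVF-chow, 0 of 15 passed (limma, adjusted p) and 0 had an unadjusted p under 0.05, against 0.0888% and 4.01% of all tested genes. The values ran from −0.65 (H2-K1, SE 0.99) to 0.57 (H2-Q6, SE 0.74), all with an adjusted p of 1. No gene of the set separated the groups, where 2.56% of all tested genes lay wholly lower and 1.27% wholly higher in FET-chow. With all mice, the classical class II genes were at −0.58 for H2-Aa, −0.58 for H2-Ab1 and −0.56 for H2-Eb1, and B2m was at −0.25. When a mouse was left out, the class II values ran from −0.96 to −0.30 for H2-Aa and −0.995 to −0.089 for H2-Ab1. That of H2-Eb1 ran from −1.315 to −0.041. With 13 of 15 values negative, against 65.4% of all tested genes, the median was −0.29 beside −0.20. Negative values numbered 11 of 15 after median-ratio scaling, beside 59.1% of all tested genes. After rescaling to protein-coding genes they numbered 7 of 15, beside 48.6%. The comparisons of this section share mice, so they are not independent of each other. With standard errors of 0.60 to 1.11, changes of the size given here were not detectable with 3 mice a group.

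**Figure D3:**
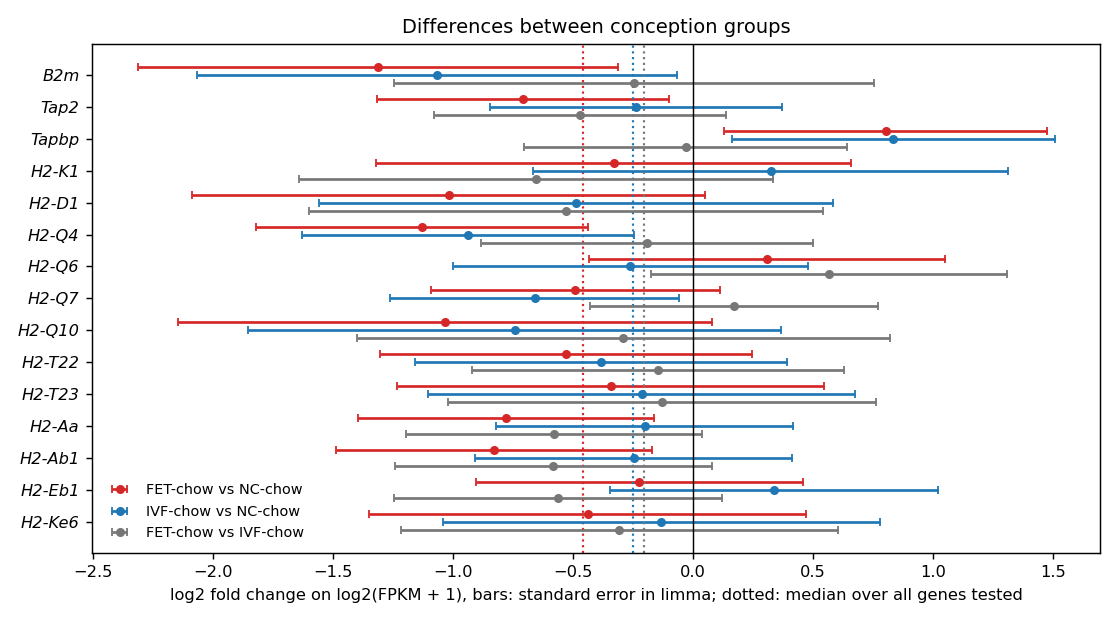
Log2 fold changes of the 15 genes in the 3 comparisons with their standard errors, on the log2(FPKM + 1) scale. In FET-chow compared with NC-chow 13 of 15 lie below 0, beside 74.4% of all tested genes, with B2m lowest at −1.31 and Tapbp highest at 0.80, and none passed the test. The count is 9 after median-ratio scaling (57.6% of all tested genes) and 8 after protein-coding rescaling (53.4%).

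Part of the spread between mice went away with scaling. As deposited, IVF-chow mouse 2 had the lowest value for 9 of the 15 genes and lay below the median mouse for all 15. After median-ratio scaling it was lowest for none, and the median coefficient of variation of the 15 genes over the 9 mice went from 65.8% to 50.2%. H2-D1 became the steadiest, with a coefficient of 25.2%, whereas that of H2-K1 stayed at 106%, since IVF-chow mouse 3 kept a scaled value of 84.0 against 9.21 to 24.8 in the other mice. The median log2 fold change of all tested genes between FET-chow and NC-chow went from −0.46 to −0.14 with this scaling, and that of the 15 genes from −0.53 to −0.21. Negative values then numbered 9 of 15, beside 57.6% of all tested genes, in FET-chow compared with NC-chow and 7 of 15, beside 50.5%, in IVF-chow compared with NC-chow.

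Scaled values of B2m were 1044, 1081 and 1174 in NC-chow, 676, 756 and 711 in IVF-chow and 408, 628 and 967 in FET-chow. The NC-chow mice then lay above all mice conceived in vitro, a separation that 13.6% of all tested genes showed for FET-chow and 8.72% for IVF-chow. The limma log2 fold change of scaled B2m was −0.80 (SE 0.39, adjusted p = 0.317) in FET-chow and −0.62 (SE 0.39, adjusted p = 0.90) in IVF-chow, each compared with NC-chow. Over all alternatives B2m stayed negative in both comparisons, at −1.55 to −0.67 (adjusted p 0.305 to 1) and −1.61 to −0.32 (adjusted p 0.667 to 1). With values rescaled to the sum of nuclear protein-coding genes, B2m made up 1.04%, 1.049% and 1.155% of that sum in the NC-chow mice, 0.594%, 0.787% and 0.604% in the IVF-chow mice and 0.493%, 0.589% and 1.07% in the FET-chow mice. FET-chow mouse 4 then lay within the NC-chow range, so FET-chow no longer separated from NC-chow (11.5% of all tested genes did), and IVF-chow still did (11.3% of all). With NC-chow mouse 1 as the only NC-chow mouse, the one whose S number is near those of the other groups, the value was −0.83 in FET-chow and −0.58 in IVF-chow (adjusted p = 1 for both).

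Scaled values of H2-D1 were 82.1, 56.4 and 70.3 in NC-chow, 46.4, 77.7 and 79.2 in IVF-chow and 42.4, 49.8 and 51.2 in FET-chow. The FET-chow mice stayed below the NC-chow mice, as in 13.6% of all tested genes, with a log2 fold change of −0.52 (SE 0.34, adjusted p = 0.457, limma). Under protein-coding rescaling, however, FET-chow mouse 4, at 57.2, passed NC-chow mouse 5, at 55.2. Over all alternatives the adjusted p for H2-D1 in this comparison was 0.422 to 1. The log2 fold change of scaled Tapbp was 1.14 in FET-chow compared with NC-chow (unadjusted p = 0.0478, adjusted p = 0.290, limma). It was the 1 of the 15 genes with an unadjusted p under 0.05 in that fit, beside 17% of all tested genes. Its adjusted p ran from 0.281 to 0.994 over the alternatives with more than 1 NC-chow mouse. The values of H2-K1, H2-T23, H2-Eb1, H2-Ke6 and, outside the 15, Cd74 in that comparison turned positive with either scaling, and that of H2-T22 with protein-coding rescaling.

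**Figure D4:**
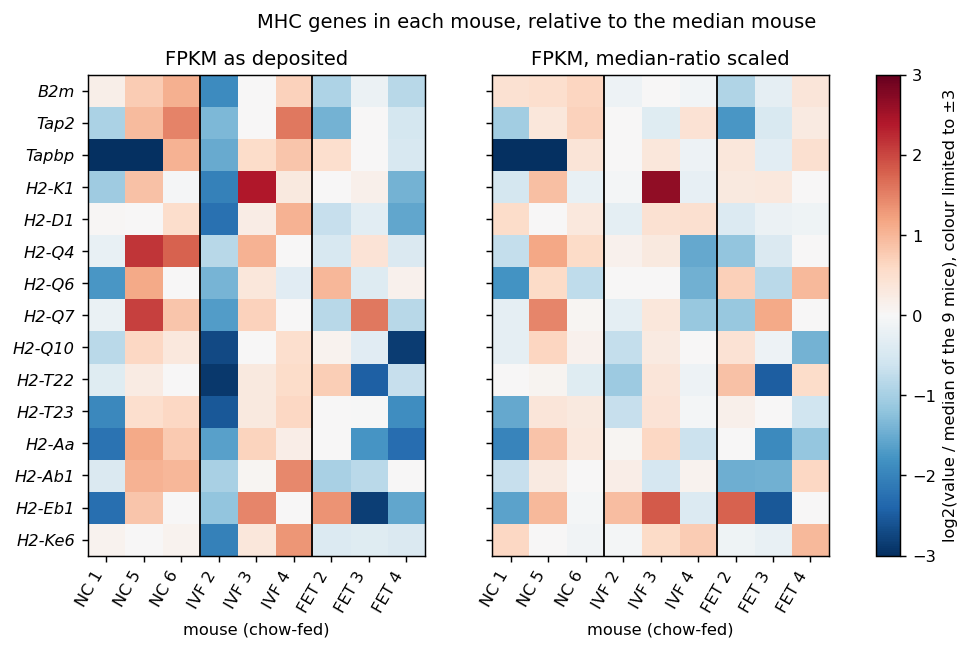
Log2 ratio of each of the 15 genes to its median over the 9 mice, as deposited and after median-ratio scaling, 1 column per mouse. As deposited the column of IVF-chow mouse 2 is low throughout (median −1.67), and after scaling its median is −0.06.

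The other genes of the pathway were taken from lists written for this purpose. Of 11 tested partners of class I, which cut, trim or load its peptides or switch on its genes, 0 passed in any comparison (limma, adjusted p). Only Tapbpl, a relative of tapasin, had an unadjusted p under 0.05, with a log2 fold change of −1.18 in FET-chow compared with NC-chow (adjusted p = 0.414), 1 of 11 beside 12% of all tested genes. The immunoproteasome genes Psmb8 and Psmb9 ran over the mice from 0.419 to 11.6 and from 0 to 2.91 FPKM. Of 5 tested partners of class II, 0 passed, and Ctss, the protease that trims the invariant chain, had an unadjusted p of 0.0455 in IVF-chow compared with NC-chow with −1.25 (adjusted p = 1), 1 of 5 beside 4.07% of all tested genes. Of 4 tested class I-like chains encoded outside the complex, 0 passed, and Cd1d1, which presents lipids to NKT cells, came nearest, as the 1 of 4 with an unadjusted p under 0.05 in FET-chow compared with NC-chow (12% of all tested genes). Its FPKM was 18.2, 42.5 and 62.4 in NC-chow, 4.36, 16.1 and 32.9 in IVF-chow and 0.0522, 8.42 and 2.42 in FET-chow. All FET-chow mice lay below all NC-chow mice, as in 17.1% of all tested genes, with a log2 fold change of −3.54 (SE 0.92, adjusted p = 0.0638, limma). Compared with IVF-chow the value was −2.17, with an unadjusted p of 0.0224, which 4.01% of all tested genes met at 0.05 (adjusted p = 1, limma). Of 15 tested interferon-responsive genes, 0 passed, and Irf1 and Isg15 had an unadjusted p under 0.05 in FET-chow compared with NC-chow, both with −1.63 (adjusted p = 0.258 and 0.322), 2 of 15 beside 12% of all tested genes. These lists were drawn up with earlier results of the data known.

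Because class II genes and Cd74 are made mostly by immune cells, markers of those cells were summed beside them. In bulk liver, fewer cells of a type and less RNA per cell cannot be told apart. The summed FPKM of 12 Kupffer cell and macrophage markers, 8 of them above 0 in every mouse, was 34.1 to 53.2 in NC-chow, 10.29 to 83.0 in IVF-chow and 19.9 to 128 in FET-chow. That of 8 B cell markers was 1.95 to 11.9 in NC-chow, 0.474 to 10.18 in IVF-chow and 0.177 to 2.49 in FET-chow, and its 1 tested gene, Ighm, had −1.61 in FET-chow compared with NC-chow (adjusted p = 0.355, limma). The 8 dendritic cell markers summed to 1.04 to 3.06, 0.735 to 2.79 and 0 to 0.939 in the same order. The 10 T and NK cell markers, of which Gzma was at 0 in all mice, summed to 0.968 to 1.79, 0.192 to 1.14 and 0.382 to 2.62. The 6 granulocyte markers, of which Mpo was at 0 in all mice, summed to 0.442 to 2.74, 0 to 12.9 and 0. No marker of the B cell, dendritic cell, T and NK cell or granulocyte lists was above 0 in every mouse. All these sums are as deposited, and whether the low depth of the FET-chow libraries lowers them was not tested. The part of these markers in the class II values was not tested either.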

How the data were processed

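Liver RNA of 9 mice was sequenced, and the authors deposited 1 table of FPKM per gene and mouse. As tools the submitters' processing notes name FastQC 0.11.5, STAR 2.5.3a, StringTie 1.3.1c and DESeq2 1.16.1. The genome build and strandedness are not given in the sources used here, and no scaling between mice is stated. Gene symbols and coordinates come from GENCODE vM21 on GRCm38, which matched 55154 of 55335 identifiers, and promoters from RefSeq.

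Groups were taken from the labels. The 6755 genes whose FPKM averaged 1 or more entered 1 model of 3 groups in limma 3.58.1 (R 4.3.3), with log2(FPKM + 1) as the response, a trend in the variance, two-sided tests and Benjamini-Hochberg adjustment over all of them. No count test was run, since FPKM is not a count. On simulated data of FET-chow against NC-chow with 6755 genes, 55% of changes of 3 on the log2 scale and 98.2% of changes of 6 were recovered. Depth was estimated from steps of up to 8 fragments with a tolerance of 2%, which 35.0% to 44.2% of low values met and 18% would by chance, and it covers counting error only. Stretches of 50 and of 100 bases shared between genes were counted on annotated transcripts.

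All tested genes of the set are named by rule, with values per mouse for the classical chains, B2m, the loading genes and Cd74. Values per mouse of H2-Q10, H2-T23, H2-Q4, H2-Ke6, H2-Ea-ps and Cd1d1 were added after they were seen. The genes and lists were chosen with earlier results of these data known. Alternatives tried were no filter, a pseudocount of 0.1, median-ratio scaling, protein-coding rescaling, a fit of 2 groups, a replicate block, NC-chow mouse 1 as the only control and leaving out each mouse in turn.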

Additional observations from a re-analysis of the deposited data

How the results depend on the processing

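No gene of the set passed an adjusted p of 0.05 under any alternative (limma). At most 2 of 15 had an unadjusted p under 0.05 in a fit (FET-chow compared with NC-chow without NC-chow mouse 1, where 14.2% of all tested genes did), and the lowest adjusted p was 0.281. Over all genes, the count of calls in FET-chow compared with NC-chow was 16 and ran from 0 (no filter, or only the 2 groups) to 20 over the other alternatives, and from 1 (without FET-chow mouse 3) to 83 (without NC-chow mouse 1) when a mouse was left out.

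The median of the tested genes in FET-chow compared with NC-chow, −0.53, was −0.84 with a pseudocount of 0.1, −0.21 with median-ratio scaling, −0.16 with protein-coding rescaling and 0.17 with NC-chow mouse 1 as the only control, and ran from −1.07 (without NC-chow mouse 1, beside −0.62 over all genes) to −0.42 when a mouse was left out. That in IVF-chow compared with NC-chow, −0.25, was −0.35, 0.06, −0.02 and 0.49 in the same order, and ran from −0.72 (without IVF-chow mouse 4) to 0.22 (without IVF-chow mouse 2), with −0.67 without NC-chow mouse 1. That in FET-chow compared with IVF-chow, −0.29, was 0 with protein-coding rescaling, −0.97 without IVF-chow mouse 2, 0.06 without IVF-chow mouse 3 and 0.21 without IVF-chow mouse 4. With protein-coding rescaling 8 of the 15 values were negative in FET-chow compared with NC-chow, beside 53.4% of all tested genes. Where NC-chow mouse 1 is the only control, it is assumed to vary like the mice of the other groups.

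Every alternative was listed for the classical chains, B2m, Tap2, Tapbp and Cd74 and, in FET-chow compared with NC-chow, H2-Q4 and H2-Q10. Of these 357 values 53 changed sign, none of them called. With median-ratio scaling these were, for FET-chow compared with NC-chow, 0.14 (H2-K1), 0.14 (H2-Eb1) and 0.16 (Cd74), for IVF-chow compared with NC-chow, 0.074 (H2-Aa), 0.058 (H2-Ab1) and 0.014 (Cd74), and for FET-chow compared with IVF-chow, 0.15 (Cd74) and 0.088 (Tapbp). With protein-coding rescaling they were 0.26 (H2-K1), 0.26 (H2-Eb1) and 0.28 (Cd74), then 0.025 (H2-Aa), then 0.35 (Cd74), 0.047 (B2m) and 0.27 (Tapbp). With NC-chow mouse 1 as the only control they were 0.60 (H2-K1), 0.17 (Tap2), 0.39 (H2-Aa), 0.81 (H2-Eb1) and 0.061 (H2-Q4), then 0.64 (Tap2), 0.97 (H2-Aa) and 0.49 (H2-Ab1). A pseudocount of 0.1 gave 0.12 (Cd74) and 0.032 (Tapbp) in FET-chow compared with IVF-chow. Of the genes not listed, median-ratio scaling turned the sign of H2-T23 (0.11) and H2-Ke6 (0.038) in FET-chow compared with NC-chow, H2-Q6, H2-T23 and H2-Ke6 in IVF-chow compared with NC-chow and H2-T22 in FET-chow compared with IVF-chow. Protein-coding rescaling turned H2-T22 (0.060), H2-T23 (0.23) and H2-Ke6 (0.16), then H2-Q6, H2-T23 and H2-Ke6, then H2-T22, H2-T23, H2-Ke6 and H2-Q10. The cause was not tested.

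Leaving out 1 mouse moved the value in FET-chow compared with NC-chow from −0.80 to 0.13 for H2-K1, −0.98 to 0.27 for H2-Eb1, −0.58 to 0.16 for Cd74, −0.28 to 0.85 for H2-Q6, −1.15 to 0.077 for H2-T22 and −1.07 to 0.19 for H2-T23, and, with no change of sign, from −1.37 to −0.42 for H2-Aa and −1.15 to −0.39 for Tap2. In IVF-chow compared with NC-chow and in FET-chow compared with IVF-chow all 15 values moved by over 1.5 times when some mouse was left out. In IVF-chow compared with NC-chow it moved from −1.16 to 0.45 for H2-D1, −0.71 to 1.36 for H2-K1, −0.74 to 0.17 for H2-Ab1, −0.72 to 0.16 for Tap2, −0.79 to 0.18 for H2-Aa, −0.98 to 0.93 for Cd74 and −0.18 to 0.79 for H2-Eb1. For H2-Q10 it moved from −1.35 to 0.22, for H2-T22 from −0.84 to 0.40 and for H2-T23 from −0.94 to 0.63. For H2-Q6 it moved from −0.85 to 0.28 and for H2-Ke6 from −0.80 to 0.72. In FET-chow compared with IVF-chow it moved from −0.87 to 0.0082 for Tap2, −0.54 to 0.28 for Tapbp, −1.69 to 0.38 for H2-K1, −0.99 to 0.30 for B2m, −1.46 to 0.14 for H2-D1 and −1.21 to 0.70 for Cd74.

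IVF-chow and FET-chow share the numbers 2, 3 and 4. The correlations of the deviations of mice with the same number were −0.13, 0.02 and −0.26, beside −0.14 to 0.29 for mice with different numbers. With so few mice these values cannot show whether mice with the same number share more than the number. With a replicate block in a fit of these groups, 0 genes of the set were called (limma, 0 at an unadjusted p under 0.05, beside 0.0296% and 3.61% of all tested genes) and the median stayed at −0.29.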
